A study of Rattus norvegicus with 11 samples.

Results

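Cultured type II cells were compared with freshly isolated type II cells of the rat lung. The comparison took every array whose labels describe cultured TII cells on day 7 and every array described as freshly isolated TII cells on day 0, which gave 3 cultured and 4 fresh arrays, 7 of the 11 in the series. The other 4 arrays held freshly isolated TI cells, also labelled day 0, and are used below to place the levels reached in culture. Total RNA was hybridised to a 1-colour Affymetrix rat expression array, and 8740 probe sets were tested after 59 control probe sets were left out. No genotype, strain, age, sex, treatment, culture substrate or medium is given in the labels for any group, and all 3 groups share the species, the molecule and the labelling kits. Titles and descriptions set the groups, since all 11 arrays carry the same source label, isolated TI cells. Separate animals or cultures are not stated for the arrays, so every p-value measures only the spread between these arrays, which may be technical.

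Type II cells are the cuboidal cells of the alveolus. They make and recycle surfactant, the lipid and protein film that lowers surface tension, they carry antigen-presenting and antimicrobial proteins, and they can divide and give rise to the flat type I cells across which gas exchange takes place. Isolated type II cells kept on plastic or matrix are widely used as a model of that transition, and they are known to lose surfactant expression and to spread as they do so.

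Values are log2 signals as deposited, to 2 decimals, with a whole number where both decimals are 0. A gene was represented by its brightest probe set, which gave 4736 genes, and was called when the adjusted p from limma (Benjamini-Hochberg over all 8740 probe sets) was under 0.05. Errors after ± are standard errors from the fit. In the fit, 34.6% of genes were called, 20.5% higher and 14.0% lower in culture, and these are the shares against which the counts below are to be read. Called genes that rose 2-fold or more made up 4.62%, and those that fell 2-fold or more 4.05%. The cultured and fresh TII arrays did not overlap for 44.5% of genes. The median gene differed by -0.01.

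The fresh TII label was checked against its markers. Signal for Sftpc, the surfactant protein made only by type II cells, was 13.16, 13, 13.10 and 13.09 on the fresh arrays, near the top of the scale, whose highest value was 13.16. On the cultured arrays it was 5.24, 5.09 and 5.04, below the array medians of 5.43 to 5.51. The cells labelled cultured TII were therefore without signal above a typical probe set for the defining marker of the type. On those arrays Nkx2-1, the transcription factor of lung epithelium, read 7.55, 7.51 and 7.50, a fall by 1.22 ± 0.12 from fresh TII cells. Another Nkx2-1 probe set fell by 0.37. The epithelial adhesion molecule Epcam read 10.69, 10.69 and 10.33 in culture, higher than its 8.76 to 8.93 on fresh arrays. Over probe sets, pairs of fresh TII arrays had a Pearson r of 0.995 to 0.998, pairs of cultured arrays 0.986 to 0.993, and mixed pairs 0.923 to 0.933. The control probe sets for RNA quality moved with the comparison: the 3′ minus 5′ signal of beta-actin lay at -0.33 to -0.08 in culture and 0.32 to 0.43 in fresh cells, and that of GAPDH at 0.30 to 0.45 and 0.47 to 0.57. The part of RNA quality in the results below was not tested.

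The widest differences included those of secreted and matrix proteins, named here from the called genes whose fresh and cultured arrays did not overlap. Osteopontin, Spp1, read 2.86, 3.14, 2.83 and 2.73 in fresh cells and 9.45, 10.06 and 10.30 in culture, a rise of 7.05 ± 0.25 (adjusted p = 2.64e-10). Its fresh level was dim, with 9.08% of probe sets dimmer, and no detection calls were used here, so for genes at such levels no fold is given and the true change may be wider. Fibronectin, Fn1, through which cells attach to matrix, read 5.25, 4.78, 5.23 and 4.96 and then 10.61, 10.90 and 10.69, and its other probe sets rose by 2.08 to 3.95. The collagen cross-linking enzyme Lox had cultured values of 9.10, 8.58 and 7.55 against 3.87 to 4.25, with other probe sets rising by 1.14 to 2.64. These 3 matrix genes were also higher in culture than in fresh TI cells, by 6.21, 3.42 and 0.91. The actin-binding protein Tagln read 10.60, 10.48 and 10.22 in culture against 5.24 to 5.65, the secreted inhibitor Wfdc1 10.56, 10.01 and 9.89 against 5.27 to 5.41, and the extracellular chaperone Clu 11.80, 12.07 and 11.96 against 8.45 to 8.63.

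At the other end were genes of antimicrobial and surfactant proteins. The defensin Defb4 read 12.02, 11.89, 11.64 and 11.75 in fresh cells and 4.46, 4.38 and 4.25 in culture, a difference of -7.46 ± 0.39 (adjusted p = 7.78e-09), with 28.8% of probe sets dimmer in culture. For the neutrophil attractant Cxcl3 the fresh values were 9.76, 9.49, 9.39 and 9.46 and the cultured values 2.35, 2.30 and 2.26, a difference of -7.22 ± 0.54 (adjusted p = 2.70e-07), with 4.18% of probe sets dimmer in culture. Surfactant protein Sftpa1 read 12.06 to 12.32 in fresh cells and 6.58, 5.53 and 5.15 in culture, and another probe set fell by 5.96. The phospholipase Pla2g1b had cultured values of 5.15, 5.30 and 4.97 against 11 to 11.17, the chitinase Chia 4.23, 4.09 and 4.39 against 9.16 to 10.02, and the mucin Muc1 6.48, 5.84 and 5.42 against 10.44 to 10.67.

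The 3 cultured arrays did not resemble each other in every gene. Of 4736 genes, 91 spanned at least 1 log2 unit among the cultured arrays, against 16 among the fresh TII arrays. In 60 of the 91 the third cultured array was highest and the first lowest, and in 28 the first was highest and the third lowest. The leukocyte tetraspanin Cd53 read 5.69, 6.47 and 7.63 on cultured arrays 1, 2 and 3, the Fc receptor Fcgr2b read 3.71, 5.09 and 6, and the macrophage elastase Mmp12 read 3.46, 5.01 and 6.18. The opposite placement was seen for some genes of epithelial cells and of matrix, picked here after their values were seen: the water channel Aqp5 read 8.09, 7.21 and 6.55, surfactant protein Sftpd 8.49, 7.55 and 6.99, the binding protein Igfbp2 9.43, 8.22 and 7.37, and the matrix enzyme Lox 9.10, 8.58 and 7.55. Of the 14 type II genes 8 were highest on cultured array 1 and 5 on array 3, among the latter Ctsc at 7.53, 7.81 and 8.21, and of 32 matrix genes 19 were highest on array 1. Replicates of a group have no order, so these are differences between arrays and not a trend. Of the 19 macrophage and leukocyte markers measured, 14 were highest on cultured array 3, against 33.5% of all genes.

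**Figure D1:**
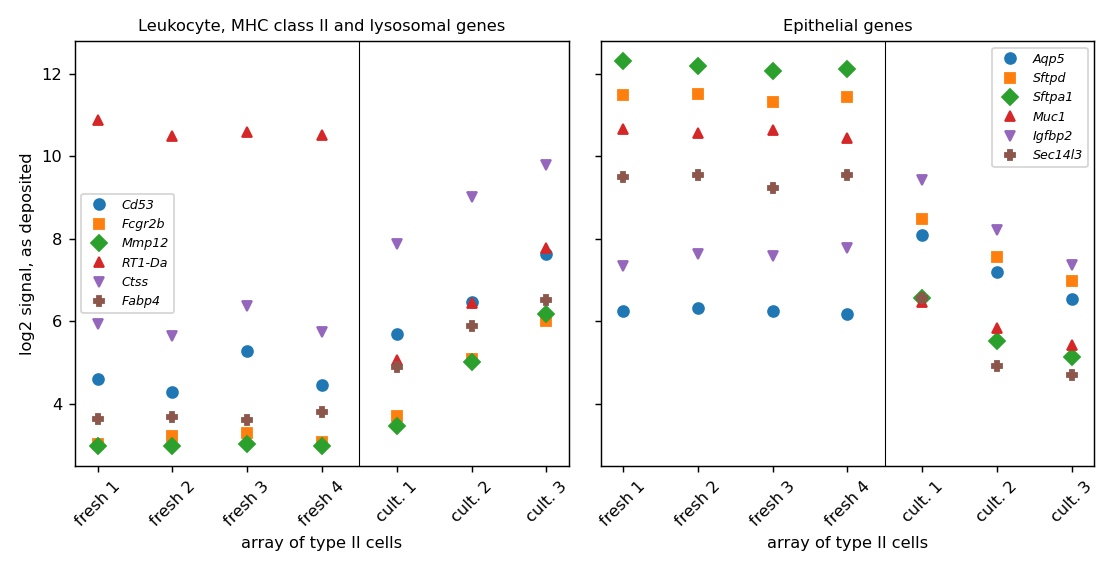
Log2 signal (vertical axis, as deposited) on each of the 4 fresh and 3 cultured TII arrays (horizontal axis), 1 point per gene and array. On the left are 6 genes headed as leukocyte, MHC class II and lysosomal. Of these, Mmp12 stands on the matrix protease list and Fabp4 on the lipid binding list. On the right are 6 epithelial genes, and both sets were chosen after their values were seen. The left-hand genes are lowest on cultured array 1 and highest on array 3 (Cd53 at 5.69 and 7.63), and the right-hand genes the reverse (Aqp5 at 8.09 and 6.55), while the fresh arrays lie close together.

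The macrophage and leukocyte list as a whole moved little. Of its 19 measured genes 4 rose and 1 fell, with a median difference of 0.02, and its mean level was 5.29 to 5.47 on fresh and 5.37 to 5.85 on cultured arrays. The 4 that rose were Cd53 by 1.93 ± 0.43, Fcgr2b by 1.78 ± 0.38, Cd48 by 1.45 ± 0.16 and the integrin chain Itgam by 0.57 ± 0.13. Without cultured array 3 these differences were 1.42, 1.24, 1.33 and 0.39, all still called. Several defining markers were not called. The receptor of the macrophage growth factor, Csf1r, read 4.67, 4.75 and 4.62 in culture and 4.56 to 4.67 in fresh cells. For complement C1qb the cultured values were 5.92, 5.93 and 5.78 against 5.67 to 5.93, and the pan-leukocyte phosphatase Ptprc was at 5.33, 5.35 and 5.40 against 5.50 to 5.60. In fresh cells 32.7% of probe sets were dimmer than Csf1r, 57.4% than C1qb and 52.2% than Ptprc. Of brighter markers, C1qc (81.7% dimmer) differed by 0.06. Cd14 (78.2% dimmer) was 0.42 ± 0.16 higher (adjusted p = 0.062), and another Cd14 probe set was 0.47 higher and called. Aif1 fell by 0.46 on its brightest probe set but rose by 1.19 and 1.26 on others, so its direction was not settled. The part of other cell types in the genes below was not tested. In bulk RNA, fewer cells of a type and less RNA per cell cannot be told apart.

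Genes of the immediate early response fell together. These genes encode short-lived transcription factors that are switched on within minutes of a stimulus, without new protein synthesis. Of 22 measured, 15 fell and 0 rose, with a median of -0.99. Fos, a component of the AP-1 factor, read 11.30, 11.08, 11.03 and 11 on fresh arrays and 7.69, 7.79 and 7.35 in culture, an 11.3-fold fall (adjusted p = 9.02e-11). Egr1 read 12.55, 12.48, 12.17 and 12.40 in fresh cells and 9.21, 8.82 and 8.65 in culture. The groups were more than 2 log2 units apart at their closest arrays for both genes. The orphan nuclear receptor Nr4a1 fell by 4.22 ± 0.12, Egr2 by 3.90 ± 0.16 and the stress-responsive factor Atf3 by 3.68 ± 0.16. Although lower, Fos and Egr1 kept signals of 7.35 to 9.21 in culture, above the array medians, whereas Egr2 dropped to 4.49, 4.81 and 4.66.

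Negative regulators that are induced by the same signals were lower too. Of 16 feedback inhibitors 9 fell and 0 rose, with a median of -0.67. Nfkbia, which holds NF-kappaB in the cytoplasm and is itself one of its targets, read 9.48, 9.71, 9.63 and 9.93 in fresh cells and 6.56, 6.81 and 7.11 in culture, a 7.27-fold fall (adjusted p = 5.25e-09). Zfp36, which binds cytokine mRNAs for decay, fell by 2.57 ± 0.08, and the phosphatase Dusp1, which ends MAP kinase signals, by 2.10 ± 0.12. Errfi1, an inhibitor of the EGF receptor, fell by 1.63 ± 0.10 and the cytokine signalling inhibitor Socs3 by 0.96 ± 0.12.

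**Figure D2:**
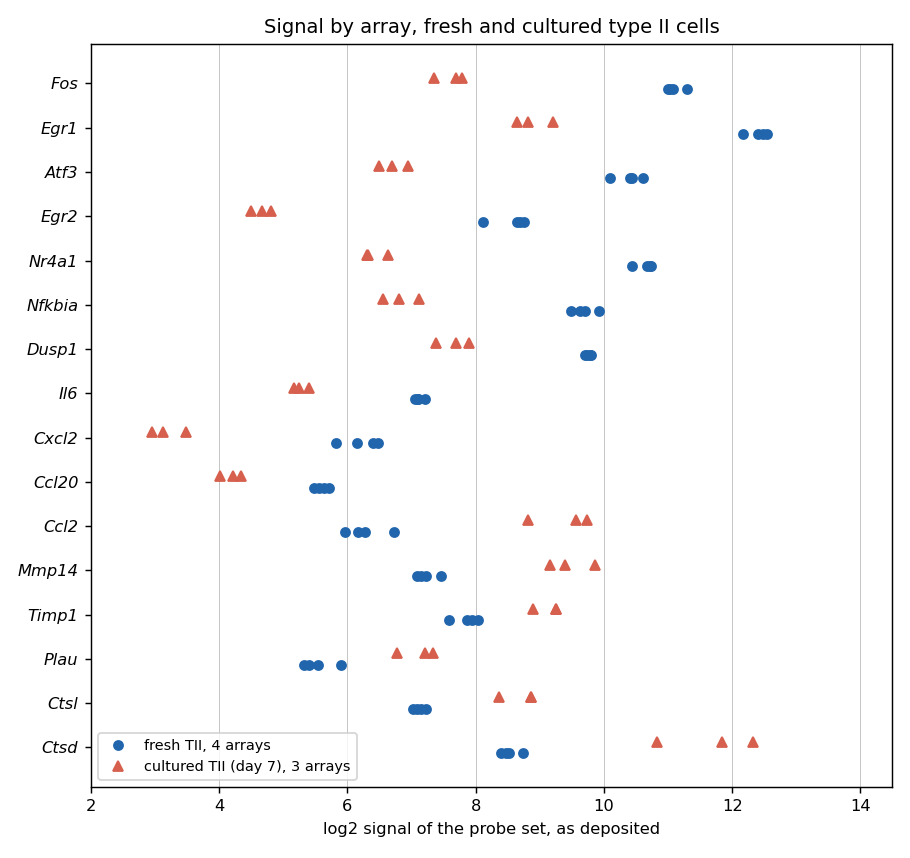
Log2 signal (horizontal axis, as deposited) on each array for 16 genes (vertical axis), with circles for the 4 fresh TII arrays and triangles for the 3 cultured TII arrays. The circles and triangles do not overlap for any gene shown, with Fos at 11 to 11.30 in fresh cells and 7.35 to 7.79 in culture, and Ctsd at 8.39 to 8.74 and 10.83 to 12.32.

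Chemokines and cytokines went in both directions. Of 28 measured, 11 fell and 4 rose, with a median of -0.14. The neutrophil chemoattractant Cxcl2 read 5.82, 6.48, 6.15 and 6.40 in fresh cells and 3.13, 2.95 and 3.48 in culture, a difference of -3.03 ± 0.39 (adjusted p = 4.49e-05), with 12.5% of probe sets dimmer in culture. Il6 fell by 1.84 ± 0.12, the T-cell attractant Ccl5 by 1.52 ± 0.14 and the dendritic-cell attractant Ccl20 by 1.41 ± 0.10. The monocyte attractant Ccl2 did the reverse: it read 6.73, 6.28, 5.96 and 6.16 in fresh cells and 8.81, 9.57 and 9.74 in culture, an 8.52-fold rise (adjusted p = 1.69e-07), and a further probe set rose by 2.96. Mif rose by 0.83 ± 0.08 and the interleukin receptor chain Il4r by 0.55 ± 0.08. Il18 rose by 1.67 ± 0.50 over all arrays, but its cultured values were 5.51, 6.96 and 7.56, and the call was lost without cultured array 2 (1.53, adjusted p = 0.0745), without array 3 (1.22, adjusted p = 0.101) and without fresh array 2 (1.58, adjusted p = 0.0501).

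Promoter sequences are shown for genes of these groups that fell and for the actin gene Acta1, which rose. A CArG box, the binding sequence of serum response factor, lies near the start of immediate early and of muscle-type actin genes alike. A sequence of the kind bound by NF-kappaB lies near the start of cytokine genes. The bases run from 200 before the start site to the base before it, from the RefSeq promoter table (GRCr8), on the strand of the gene. Capitals mark the CArG box (CC, then 6 bases of A or T, then GG) or a kappaB-type sequence (GGG, then any 2 bases, then TTTCC), each searched on both strands. Egr2 (chr20:21054442-21054641, minus strand) and Acta1 (chr19:68784195-68784394, minus strand) carry the first, and Nfkbia (chr6:78597073-78597272), Cxcl2 (chr14:17467256-17467455) and Il6 (chr4:5894576-5894775), all on the minus strand, carry the second.
Egr2: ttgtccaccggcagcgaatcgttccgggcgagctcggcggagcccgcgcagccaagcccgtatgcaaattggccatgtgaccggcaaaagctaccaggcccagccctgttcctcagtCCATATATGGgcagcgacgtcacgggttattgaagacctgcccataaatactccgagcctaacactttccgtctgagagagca
Acta1: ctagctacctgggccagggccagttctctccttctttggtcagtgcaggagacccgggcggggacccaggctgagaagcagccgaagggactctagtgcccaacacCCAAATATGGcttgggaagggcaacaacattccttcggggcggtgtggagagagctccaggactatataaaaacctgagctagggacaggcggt
Nfkbia: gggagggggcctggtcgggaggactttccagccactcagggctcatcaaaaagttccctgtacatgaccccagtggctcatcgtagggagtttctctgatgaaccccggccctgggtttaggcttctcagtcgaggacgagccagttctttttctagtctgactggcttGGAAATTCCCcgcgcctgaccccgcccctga
Cxcl2: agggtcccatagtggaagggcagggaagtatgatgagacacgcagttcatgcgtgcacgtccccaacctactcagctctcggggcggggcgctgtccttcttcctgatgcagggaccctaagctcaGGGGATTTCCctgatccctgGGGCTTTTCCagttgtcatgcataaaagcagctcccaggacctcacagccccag
Il6: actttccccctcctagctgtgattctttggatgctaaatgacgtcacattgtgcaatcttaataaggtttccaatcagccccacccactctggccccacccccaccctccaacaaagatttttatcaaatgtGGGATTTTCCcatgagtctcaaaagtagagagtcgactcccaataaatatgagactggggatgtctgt

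Within 250 bases before the start, a CArG box was found in 1.62% of the 27457 genes with a promoter entry. It was found in 3 of 14 immediate early genes with an entry (Egr1, Egr2 and Klf6), in 2 of 14 feedback inhibitors (Dusp5 and Zfp36) and in 3 of 24 contractile genes (Acta1, Actg1 and Rnd3). The kappaB-type sequence was found in 1.37% of all genes, in 5 of 18 chemokine and cytokine genes (Ccl20, Cxcl2, Cxcl6, Il1rn and Il6) and in 2 of 14 feedback inhibitors (Dusp5 and Nfkbia). Egr2 fell while the alpha-actin Acta1 rose by 2.09 ± 0.18, from 5.57, 6, 5.66 and 5.99 to 8.43, 7.68 and 7.56. The other CArG box genes that were called, Egr1, Klf6, Zfp36 and Dusp5, all fell. Actg1 (0.23, adjusted p = 0.113) and Rnd3 (-0.10, adjusted p = 0.444) were not called, so Acta1 was the 1 riser among these 8. Only genes with a promoter entry could be searched: 14 of 22 immediate early, 24 of 30 contractile, 18 of 28 chemokine and cytokine and 14 of 16 feedback genes. The risers Tagln and Ccl2 and the fallers Fos and Atf3 had no entry, so their promoters were not searched. Of the genes with the kappaB-type sequence, Cxcl6 (0.18, adjusted p = 0.188) and Il1rn (-0.05, adjusted p = 0.786) were not called, and the others fell. A match is a description of sequence, and binding at these sequences was not measured.

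Most genes of the MHC class II list had lower transcript levels in culture. Class II molecules present peptides to helper T cells and are carried by type II cells as well as by leukocytes. Of 10 genes on the list 6 fell and 1 rose, with a median of -0.93. The class II chain RT1-Da read 10.88, 10.50, 10.59 and 10.53 in fresh cells and 5.06, 6.44 and 7.78 in culture, an 18.3-fold fall (adjusted p = 1.46e-05) with wide spread between the cultured arrays. The invariant chain Cd74, which guides class II molecules to the endosome, read 11.13, 11.09, 10.99 and 10.90 in fresh cells and 6.74, 7.42 and 8.07 in culture. Neither gene's groups overlapped, and both cultured sets were highest on array 3. RT1-Bb fell by 3.35 ± 0.29 and RT1-Db1 fell by 2.75 ± 0.23, though probe sets of RT1-Bb at -0.28 and -0.01 were not called. The member that rose was the protease Ctss, which trims the invariant chain, from 5.93, 5.64, 6.38 and 5.74 to 7.87, 9.02 and 9.80, a 7.84-fold difference (adjusted p = 0.000146).

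Interferon response and class I processing genes were mixed, with 5 risers and 4 fallers among 17 and a median of 0.00. The transcription factor Irf1 fell by 2.47 ± 0.18, from 9.92 to 10.15 in fresh cells to 7.17 to 7.87 in culture. The membrane protein Ifitm3 fell by 1.11 ± 0.27, with cultured values of 7.32, 6.70 and 5.98. The receptor chain Ifngr1 rose by 0.76 ± 0.14, the proteasome activator Psme2 by 0.65 ± 0.11 and the immunoproteasome subunit Psmb9 by 0.55 ± 0.10.

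Secreted proteins of host defence fell widely: 11 of 19 were lower and 5 higher, with a median of -2.45, and 9 genes of the list stand on another list too. Complement C3 read 8.65, 8.54, 8.53 and 8.57 in fresh cells and 5.54, 5.37 and 6.10 in culture, a 7.50-fold fall (adjusted p = 3.03e-09). Mgp, an inhibitor of calcification, rose by 1.91 ± 0.19 and the lectin Lgals3 by 2.38 ± 0.42, the latter with cultured values of 9.84, 10.95 and 11.14. Among 16 acute-phase genes 6 fell and 1 rose, with a median of -0.11. Fibrinogen gamma, Fgg, read 8.65, 8.92, 8.26 and 8.84 in fresh cells and 5.67, 5.38 and 5.15 in culture, and haptoglobin Hp fell by 2.26 ± 0.15. Apolipoprotein Apoe was the riser, from 7.53, 7.27, 7.76 and 7.38 to 10.45, 10.59 and 10.60, and a further probe set rose by 4.49.

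Several enzymes that make fatty acids, which surfactant phospholipid needs, were lower. Of 27 genes of lipogenesis and phospholipid synthesis 11 fell and 3 rose, with a median of -0.13, and the carboxylase Acaca, which opens fatty acid synthesis, differed by -0.08 (adjusted p = 0.639). The desaturase Scd read 9.30, 10, 10.16 and 10.03 in fresh cells and 5.04, 5.20 and 5.23 in culture, a 26.3-fold fall (adjusted p = 3.28e-09). Fatty acid synthase, Fasn, read 9.66, 9.55, 10.03 and 9.61 in fresh cells and 7.31, 7.31 and 7.30 in culture, and Acly, which supplies its acetyl-CoA, fell by 2.09 ± 0.16. The acyl-CoA ligase Acsl4 fell by 2.03 ± 0.09, with another probe set at -1.77 and a dimmer one at -0.23, not called. Malic enzyme Me1, a source of NADPH, rose by 1.26 ± 0.13 on its brightest probe set, while others at 0.24 and 0.19 were not called. Against fresh TI cells, Fasn in culture was higher by 0.40 ± 0.11 and Acsl4 by 0.78, and Scd lower by 1.04.

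Of 17 genes of cholesterol synthesis and uptake, 4 fell and 2 rose, with a median of -0.20. The isomerase Idi1 read 8.16, 8.64, 7.84 and 8.46 in fresh cells and 5.48, 5.54 and 5.27 in culture, a 7.18-fold fall (adjusted p = 4.31e-08). Insig1, which retains the sterol sensor in the endoplasmic reticulum, fell by 2.12 ± 0.10 and Sqle by 1.18 ± 0.14. The later-acting isomerase Ebp rose by 0.82 ± 0.09 and Soat1, which esterifies cholesterol for storage, by 0.57 ± 0.10.

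Genes of lipid binding and storage were split, with 8 risers and 5 fallers among 26 and a median of 0.11. The lipid droplet protein Plin2 rose by 1.07 ± 0.21, although another probe set at 0.21 was not called. Lysosomal lipase Lipa rose by 1.45 ± 0.24 and the lipoprotein receptor Vldlr by 1.23 ± 0.12. The fatty acid carrier Fabp4 read 3.63, 3.69, 3.62 and 3.81 in fresh cells and 4.90, 5.88 and 6.53 in culture. The endocytic receptor Lrp2 fell by 2.48 ± 0.13, the sterol carrier Scp2 by 2.37 ± 0.15 and Cpt1a, the gate to mitochondrial fatty acid oxidation, fell by 1.09 ± 0.13.

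The calcium-binding protein S100g had one of the widest differences of any gene. It read 10.44, 10.62, 10.14 and 10.45 in fresh cells and 4.32, 4.52 and 4.36 in culture, a fall by 6.01 (adjusted p = 2.45e-08) to a level below the array medians. It stands on a list of 19 annexin, S100 and other calcium-binding genes, of which 9 rose and 3 fell, with a median of 0.48. Besides S100g the called S100 genes were S100a1, which fell by 0.82, S100b, which fell by 0.32, and S100a10, which rose. Annexin Anxa2 read 9.43, 9.41, 9.29 and 9.38 in fresh cells and 11.01, 11.12 and 10.93 in culture. Its partner S100a10, with which it forms a membrane-bound complex, was higher by 2.04 ± 0.17, the phosphatidylserine-binding Anxa5 by 1.76 ± 0.10 and the calcium-dependent protease chain Capn2 by 1.86 ± 0.13.

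Genes of regulated secretion moved in both directions. Type II cells release surfactant from lamellar bodies by exocytosis, which uses Rab proteins and SNARE proteins. Of 42 genes 14 rose and 6 fell, with a median of 0.16. Rph3al, an effector of secretory Rab proteins, fell by 1.47 ± 0.10 on its brightest probe set, and another at -0.14 was not called. Rab27a fell by 0.75 ± 0.14. Rab5a of early endosomes rose by 1.24 ± 0.09, and the plasma membrane SNARE Snap23 by 1.12 ± 0.10. Rab3d, a Rab protein of secretory granules, differed by -0.03 ± 0.10 (adjusted p = 0.885).

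Many enzymes of xenobiotic metabolism fell. Of 36 genes on the detoxification list 21 fell and 5 rose, with a median of -0.53. The carboxylesterase Ces1d read 7.84, 7.48, 7.21 and 7.32 in fresh cells and 3.02, 2.31 and 2.50 in culture, a difference of -4.85 ± 0.20 (adjusted p = 9.09e-10), with 6.65% of probe sets dimmer in culture. The sulfotransferase Sult1a1 read 10.27, 10.12, 10.46 and 10.06 in fresh cells and 6.36, 6.31 and 5.89 in culture. The retinal dehydrogenase Aldh1a1 fell by 3.54 ± 0.23. Aldo-keto reductase Akr1b1 rose by 1.21 ± 0.07, carbonyl reductase Cbr1 by 1.23 ± 0.07 and Cyp1b1 by 0.99 ± 0.13.

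Some airway markers were lower beside them. Of 8 measured, 4 fell, 0 rose and Aldh3a1, Muc5ac, Krt5 and Dnah1 were not called, and their mean level was 6.74 to 6.85 on fresh and 5.18 to 5.54 on cultured arrays. The secretoglobin Scgb1a1 of club cells read 11.15, 11.08, 10.84 and 11.02 in fresh cells and 8.63, 8.52 and 8.06 in culture. The cytochrome Cyp2f4, also on the detoxification list, fell from 10.27, 10.08, 9.94 and 9.97 to 5.72, 5.71 and 5.61. Foxj1 of ciliated cells was at 4.14 to 4.52 on fresh arrays, and the basal cell keratin Krt5 had a mean of 4.54. The part of airway cells in the fall of the detoxification genes was not tested. Haemoglobin Hbb, the red blood cell marker, read 8.45, 8.52, 10.14 and 8.36 in fresh cells and 5.36, 5.53 and 5.27 in culture, and the other red blood cell markers, Alas2 and Slc4a1, were not called.

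Genes of the lysosome rose together. Of 19 cathepsin and lysosome genes 15 rose and 1 fell, with a median of 1.02. The protease Ctsd read 8.48, 8.52, 8.74 and 8.39 in fresh cells and 10.83, 11.84 and 12.32 in culture, an 8.76-fold rise (adjusted p = 1.46e-05). Ctsb read 8.96, 8.91, 8.85 and 8.84 in fresh cells and 10.70, 11.06 and 11.21 in culture. The saposin precursor Psap, whose products help break down sphingolipids, rose by 1.61 ± 0.22 and Ctsl by 1.58 ± 0.16, with another Ctsl probe set, at 0.25, not called. Ctsc was the member that fell, by 1.33 ± 0.16. Cultured array 3 gave the highest value for 13 of the 19, as it did for macrophage and leukocyte markers. The part of leukocytes in these rises was not tested.

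**Figure D3:**
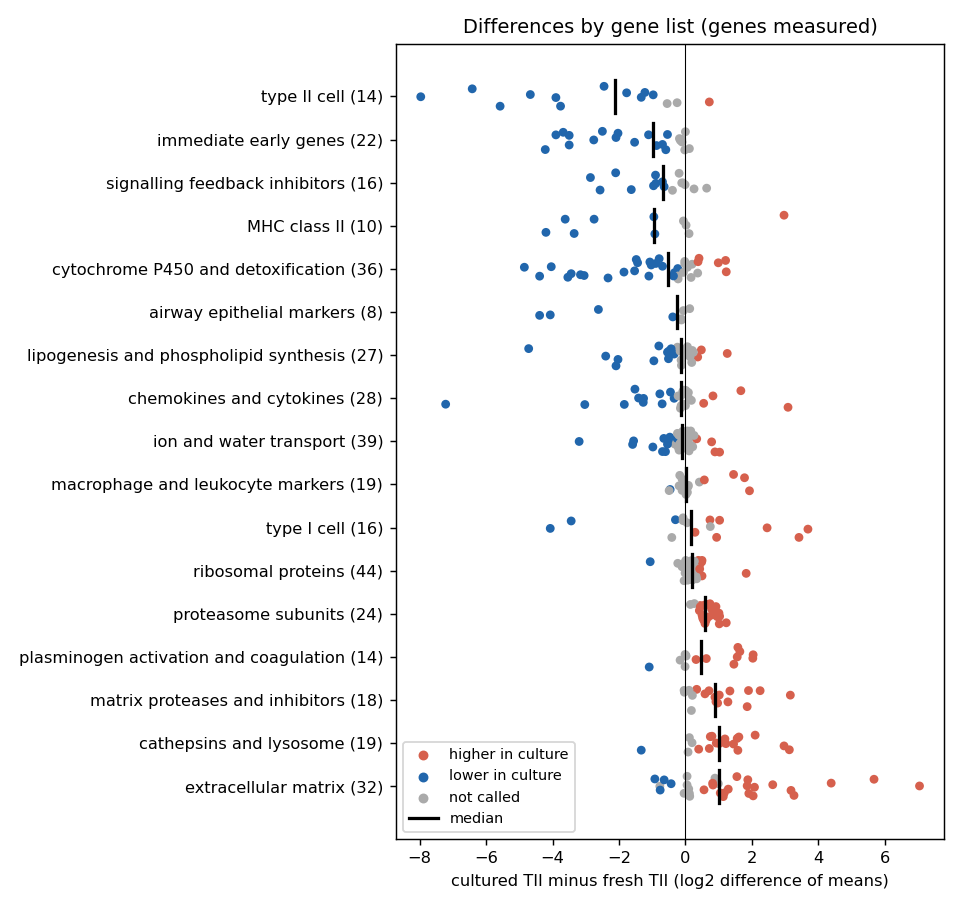
Log2 difference of group means, cultured minus fresh TII (horizontal axis), for each measured gene of 17 lists (vertical axis, number of genes in brackets), with red and blue points for genes called higher and lower at adjusted p under 0.05, grey points for the rest and a black bar at the list median. Matrix, protease and lysosome lists have medians of 1.02, 0.91 and 1.02, and the type II and immediate early lists medians of -2.11 and -0.99, while the median of all genes was -0.01.

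Proteases that remodel the matrix, and their inhibitors, rose without exception among the called genes. Of 18 measured, 13 rose and 0 fell, with a median of 0.91. The tissue inhibitor Timp3 read 6.72, 6.81, 6.87 and 6.80 in fresh cells and 10.14, 9.87 and 9.85 in culture, an 8.91-fold rise (adjusted p = 1.21e-10). The membrane-bound protease Mmp14 read 7.46, 7.22, 7.08 and 7.14 in fresh cells and 9.16, 9.40 and 9.86 in culture. Both inhibitors and proteases were thus higher, with Timp2 up by 1.34 ± 0.09, Timp1 by 1.28 ± 0.13 and Adam17, which sheds growth factor precursors, by 1.86 ± 0.11. Mmp12 rose by 1.90 ± 0.43 over all arrays and by 1.25 without cultured array 3.

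Genes of plasminogen activation and coagulation rose for 8 of 14 and fell for 1, with a median of 0.47. The thrombin receptor F2r read 7.99, 7.83, 8.15 and 7.70 in fresh cells and 10.05, 10.11 and 9.66 in culture, a 4.07-fold rise (adjusted p = 5.03e-08). Urokinase, Plau, rose by 1.56 ± 0.15 and the tissue factor inhibitor Tfpi by 1.58 ± 0.13. The protease inhibitor Serpine2 fell by 1.09 ± 0.09.

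Of 32 matrix genes 19 rose and 4 fell, with a median of 1.02. The laminin chain Lama3 read 3.33, 4.01, 3.49 and 3.75 in fresh cells and 6.86, 7.09 and 6.80 in culture. The elastic fibre protein Fbln5 read 4.60, 4.80, 4.81 and 4.56 in fresh cells and 7.96, 7.83 and 7.83 in culture. Collagen Col1a1 was 0.99 ± 0.36 higher (adjusted p = 0.0532), with cultured values of 9.05, 9.09 and 7.62, and another probe set, 0.68 higher, was called. Among the members that fell were the laminin chain Lamb2 by 0.92 ± 0.08 and tenascin Tnc by 0.76 ± 0.18, but Tnc probe sets at 0.23 and 0.07 were not called. Sparc cannot be given a direction: its brightest probe set fell by 0.43 and 3 others rose by 3.24, 3.61 and 4.10.

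Fibroblast and smooth muscle markers did not move as a list. Of 21 measured, 3 rose and 1 fell, with a median of 0.08, and the mean level was 5.17 to 5.38 on fresh and 5.21 to 5.61 on cultured arrays. The risers were Fbln5, smooth muscle actin Acta2 by 0.47 ± 0.11, and periostin Postn, with cultured values of 3.21, 3.36 and 2 against 1.62 to 1.78. Other Acta2 probe sets rose by 2.02 and 1.73. Smooth muscle myosin Myh11 had means of 4.38 in fresh cells and 4.18 in culture, the mesenchymal surface protein Thy1 4.92 and 4.72, and the receptor Pdgfra 4.32 and 3.98. These levels were dim, with 28.7%, 38.6% and 27.4% of probe sets dimmer in fresh cells. Brighter members that were not called went both ways. Col1a1 was higher by 0.99 ± 0.36 and Dcn by 0.89 ± 0.35, and Col3a1 was lower by 0.77 ± 0.50 and Gpc3 by 0.72 ± 0.31.

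Contractile and actin-binding genes rose for 16 of 30 and fell for 4, with a median of 0.34. Caldesmon, Cald1, read 2.03, 2.54, 2.38 and 2.26 in fresh cells and 6.47, 6.27 and 5.63 in culture, a rise of 3.82 ± 0.18 (adjusted p = 2.62e-09) from a level below which lay 3.91% of probe sets. Calponin Cnn3 rose by 2.25 ± 0.14 on its brightest probe set, and another at 0.10 was not called. The small GTPase Rhob fell by 1.45 ± 0.17 and the LIM protein Csrp2 by 1.32 ± 0.16. Of 18 genes of intermediate filaments, tubulins and membrane linkers, 4 rose and 3 fell. The linker ezrin, Ezr, fell by 0.83 ± 0.18 while its relative moesin, Msn, rose by 1.82 ± 0.16 on its brightest probe set and fell by 0.28 on another. Vimentin, Vim, rose from 6.98, 6.66, 7.37 and 6.55 to 8.47, 9.57 and 9.90, and keratin Krt19 fell by 0.77 ± 0.17, with cultured values of 8.90, 8.32 and 7.88.

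Of 15 junction genes 4 rose, 4 fell and 7 were not called, with a median of -0.02. Over all genes 20.5% rose and 14.0% fell. The tight junction claudin Cldn3 read 10.70, 10.80, 10.67 and 10.79 in fresh cells and 8.75, 8.34 and 7.75 in culture, a 5.52-fold fall (adjusted p = 1.57e-07). The gap junction protein Gja1 read 5.27, 5.61, 5.19 and 5.39 in fresh cells and 8.34, 8.24 and 8.41 in culture, a 7.80-fold rise, while the gap junction protein Gjb1 fell by 0.75 ± 0.10. Epcam rose by 1.72 ± 0.14, plakoglobin Jup by 0.63 ± 0.09 and the scaffold Tjp1 by 0.67 ± 0.18. In culture the Cldn3 level did not differ from that in fresh TI cells by more than the error (-0.05, adjusted p = 0.809).

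Integrins, tetraspanins and related surface proteins rose for 7 of 22 and fell for 5, with a median of 0.10. The common integrin chain Itgb1 rose by 1.16 ± 0.14, and the tetraspanins Cd81 by 1.76 ± 0.13, Cd9 by 1.41 ± 0.13 and Cd63 by 1.22 ± 0.17. The laminin-binding integrin chain Itga7 fell by 1.07 ± 0.12. Nrp1, a co-receptor for semaphorins and VEGF, read 7.38, 7.15, 7.46 and 7.08 in fresh cells and 3.73, 3.96 and 3.89 in culture, a difference of -3.41 ± 0.13 (adjusted p = 5.17e-10), with 20.9% of probe sets dimmer in culture.

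Ion and water transport genes fell for 11 of 39 and rose for 4, with a median of -0.09. The potassium channel Kcnj15 read 8.67, 8.49, 9.09 and 8.34 in fresh cells and 5.42, 5.50 and 5.42 in culture, a 9.19-fold fall (adjusted p = 2.44e-09). The chloride cotransporter Slc12a2 fell by 1.59 ± 0.17 on its brightest probe set, and another at -0.05 was not called. Subunits of the epithelial sodium channel went apart: Scnn1g rose by 0.79 ± 0.12, and Scnn1a fell by 0.60 ± 0.22 (adjusted p = 0.0469). Scnn1a had fresh values of 7.77, 7.35, 8.41 and 7.32, and its call was lost without any one of the cultured arrays (-0.62 without array 1, -0.61 without array 2 and -0.58 without array 3) and without fresh array 1 or 3 (-0.58 and -0.37). Among 22 carriers 4 rose and 1 fell. The transferrin receptor Tfrc rose by 1.63 ± 0.21, the lactate carrier Slc16a3 by 1.48 ± 0.14 and the taurine carrier Slc6a6 by 1.47 ± 0.20, and the peptide carrier Slc15a2, a known type II transporter, fell (adjusted p = 2.10e-08). Slc2a1, the common glucose carrier, was 0.18 ± 0.17 higher on its brightest probe set (adjusted p = 0.479), and 0.31 higher on another, which was called.

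Antioxidant genes went in both directions. Of 23 measured, 7 rose and 5 fell, with a median of 0.12. Peroxiredoxins Prdx1 and Prdx2 rose by 0.89 ± 0.17 and 0.71 ± 0.12, and glutathione peroxidase Gpx1 by 1.01 ± 0.11, with another Gpx1 probe set, at 0.10, not called. Catalase Cat fell by 1.29 ± 0.15 on its brightest probe set, and another at 0.03 was not called. Prdx6, which also acts as a phospholipase on surfactant lipid, fell by 0.71 ± 0.13. Haem oxygenase Hmox1 had cultured values of 9, 10.12 and 10.70 against 8.49 to 8.92. It rose by 1.27 ± 0.45 on its brightest probe set (adjusted p = 0.047), a call lost without cultured array 2 (1.18) or 3 (0.89). That call was also lost without each of the fresh TII arrays in turn (1.21, 1.35, 1.21 and 1.30). The same held without fresh TI array 1 (1.27, adjusted p = 0.0568). Another Hmox1 probe set rose by 1.59 ± 0.41 and was called.

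Growth factor systems held risers and fallers alike. Of 25 genes of the EGF family and receptor tyrosine kinases 6 rose and 5 fell, with a median of 0.01. The EGF receptor ligand amphiregulin, Areg, read 6.79, 7.14, 6.95 and 7.26 in fresh cells and 8.72, 9.14 and 9.10 in culture, a 3.88-fold rise (adjusted p = 4.50e-08). Ephrin Efna1 rose by 1.63 ± 0.10, and Nrg1 by 1.17 ± 0.09, with another Nrg1 probe set at -0.14 not called. The receptor of keratinocyte growth factor, Fgfr2, fell by 1.77 ± 0.14, with another probe set at -0.17 not called, and the hepatocyte growth factor receptor Met fell by 0.68 ± 0.12.

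Of 33 genes of TGF-beta and BMP signalling 8 rose and 6 fell, with a median of -0.03. Ligands moved apart: Tgfb1 rose by 0.88 ± 0.12, whereas Bmp3 read 7.14, 6.82, 6.82 and 6.96 in fresh cells and 4.30, 4.45 and 4.04 in culture, and Bmp4 fell by 0.97 ± 0.15. Antagonists of these ligands rose, follistatin Fst by 1.18 ± 0.12 and noggin Nog by 0.81 ± 0.13. The BMP targets Id1, Id2 and Id3, inhibitors of helix-loop-helix factors, fell by 0.94 ± 0.09, 1.83 ± 0.33 and 0.56 ± 0.14, and another Id1 probe set, at -0.12, was not called.

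Of 16 genes of the insulin-like growth factor system 4 rose and 3 fell, with a median of -0.01. The binding proteins Igfbp3 and Igfbp5 fell by 1.51 ± 0.13 and 1.22 ± 0.30, with another Igfbp5 probe set at -0.05 not called, and Grb14, an adaptor that dampens insulin receptor signals, rose by 1.24 ± 0.14. Of 24 genes of VEGF, endothelin and angiotensin 3 rose and 5 fell. Endothelin Edn1 rose by 1.49 ± 0.19, and adrenomedullin Adm, a vasodilator peptide, read 7.22, 7.92, 6.89 and 7.84 in fresh cells and 5.15, 5.32 and 5.15 in culture. Endothelial markers moved little: of 11, Edn1 rose and the VEGF receptor Kdr fell, and Pecam1 and Vwf were not called.

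Cell cycle genes rose for 8 of 28 and fell for 5, with a median of 0.09. The D-type cyclins, which drive entry into the cycle with Cdk4, differed among themselves: Ccnd2 rose by 1.62 ± 0.19 and Ccnd3 by 1.28 ± 0.08, and Ccnd1 fell by 0.48 ± 0.10. Other Ccnd1 probe sets, at -0.07 and -0.07, and a Ccnd3 probe set, at 0.10, were not called. Cdk4 rose by 0.98 ± 0.11 and the replication clamp Pcna fell by 0.68 ± 0.14. Cdk1, the mitotic kinase, had cultured values of 5.21, 5.79 and 6.18 against 5.12 to 5.25, and its rise of 0.57 ± 0.17 was lost without cultured array 2 (0.53, adjusted p = 0.0666) or 3 (0.34, adjusted p = 0.0872). Of 14 cell cycle inhibitors and p53 response genes 3 rose and 2 fell. Ccng1, a p53 target, read 6.37, 6.21, 6.37 and 6.09 in fresh cells and 8.43, 8.82 and 8.50 in culture, while the inhibitor Cdkn1a differed by 0.16 ± 0.09 (adjusted p = 0.201), with another probe set 0.47 higher and called.

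Some heat shock genes divided the fresh arrays themselves. The inducible chaperone Hspa1a read 8.14, 10.48, 8.65 and 10.47 on fresh arrays 1 to 4 and 6.78, 6.86 and 6.73 in culture, a fall by 2.64 ± 0.46 (adjusted p = 0.000542). Its co-chaperone Dnajb1 read 8.81, 9.80, 8.71 and 9.90 in fresh cells and 7.61, 7.33 and 7.16 in culture. Fresh arrays 2 and 4 were thus high for both, and the same arrays were high in the control probe set for 5S ribosomal RNA, at 7.62 and 7.50 against 6.14 and 6.17. That control read 5.43, 5.52 and 5.52 in culture, and its part was not tested. Within the list of 17, 8 rose and 5 fell, with a median of -0.01. The small heat shock protein Cryab read 5.56, 5.52, 5.74 and 5.43 in fresh cells and 9.06, 8.83 and 8.38 in culture, a 9.16-fold rise (adjusted p = 1.72e-09), and the mitochondrial co-chaperonin Hspe1 rose by 1.32 ± 0.15.

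Subunits of the proteasome rose almost as a block. This complex degrades proteins tagged with ubiquitin. Of 24 genes 22 rose and 0 fell, with a median of 0.60, a share well above the 20.5% of all genes, although only 4 reached 2-fold. The core subunit Psmb2 read 8.44, 8.26, 8.23 and 8.33 in fresh cells and 9.60, 9.54 and 9.49 in culture, a 2.34-fold rise (adjusted p = 1.28e-06). Psma2 rose by 1.03 ± 0.16 and the ATPase Psmc2 of the cap by 1.02 ± 0.10. Psma5 rose by 1.01 ± 0.13 on its brightest probe set and fell by 0.52 on another. Ribosomal proteins, by contrast, rose for 11 of 44 and fell for 1, with a median of 0.19, a share near that of all genes. Among them Rps27l, a p53-responsive relative of Rps27, stood out at 1.83 ± 0.16, and Rpl11 rose by 0.50 ± 0.09. Ribosomal protein genes have many processed copies, so their signal cannot be assigned to 1 locus.

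The type I and type II lists were last set against fresh TI cells, the type into which cultured type II cells are thought to develop. Of 14 type II genes measured, 11 fell from fresh TII cells and 8 lay below fresh TI cells too, with 4 above them. In culture Sftpb read 7.04, 7.00 and 7.09 and was lower than in fresh TI cells by 2.31 (adjusted p = 7.07e-05), and alkaline phosphatase Alpl, at 8.39, 8.45 and 8.32, was lower by 1.40. Those higher than in fresh TI cells were Ctsh by 1.25, Cebpd by 0.81 on its brightest probe set, Foxa2 by 0.57 and Ctsc by 0.55. Across genes, 25.8% were higher and 34.2% lower in culture than in fresh TI cells. Fresh TI arrays themselves held surfactant signal, with a mean of 11.9 for Sftpc, so a level below fresh TI cells is a level below arrays that carried type II transcripts.

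Of 16 type I genes measured, 7 rose in culture and 3 fell, with a median of 0.17, and 11 stayed below fresh TI cells with 1 above. The 3 that fell were Sec14l3, also an airway marker, by 4.07 ± 0.33, Cyp4b1 by 3.44 ± 0.19 and Gnb1 by 0.30 ± 0.10. Another Gnb1 probe set rose by 0.95. Among the risers, Icam1 (0.29, adjusted p = 0.0392) was not called after quantile normalization (0.14, adjusted p = 0.372). The widest rise was that of podoplanin, Pdpn: it read 5.75, 5.66, 5.57 and 5.65 in fresh TII cells, 9.20, 9.37 and 9.47 in culture, and 0.79 ± 0.08 less in culture than in fresh TI cells. The differences of Gnb1 (-0.05, adjusted p = 0.698) and Igfbp2 (0.37, adjusted p = 0.352) from fresh TI cells were not called. The anchoring protein Akap5 read 6.63, 6.10 and 5.82 in culture against a fresh TI mean of 6.96. Ager and Aqp5 rose by 0.94 ± 0.13 and 1.03 ± 0.25 yet stayed lower than in fresh TI cells by 2.13 and 3.27, and without cultured array 1 the rise of Aqp5 was 0.63. Another Aqp5 probe set, at 0.55, was not called. Caveolin Cav1 read 5.97, 6.07 and 5.54 in culture against 5.72 to 6.02 in fresh TII cells and a mean of 9.67 in fresh TI cells, and Igfbp6 differed from fresh TI cells by -2.88. The cell cycle inhibitor Cdkn2b was the gene above fresh TI cells, by 1.77.

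**Figure D4:**
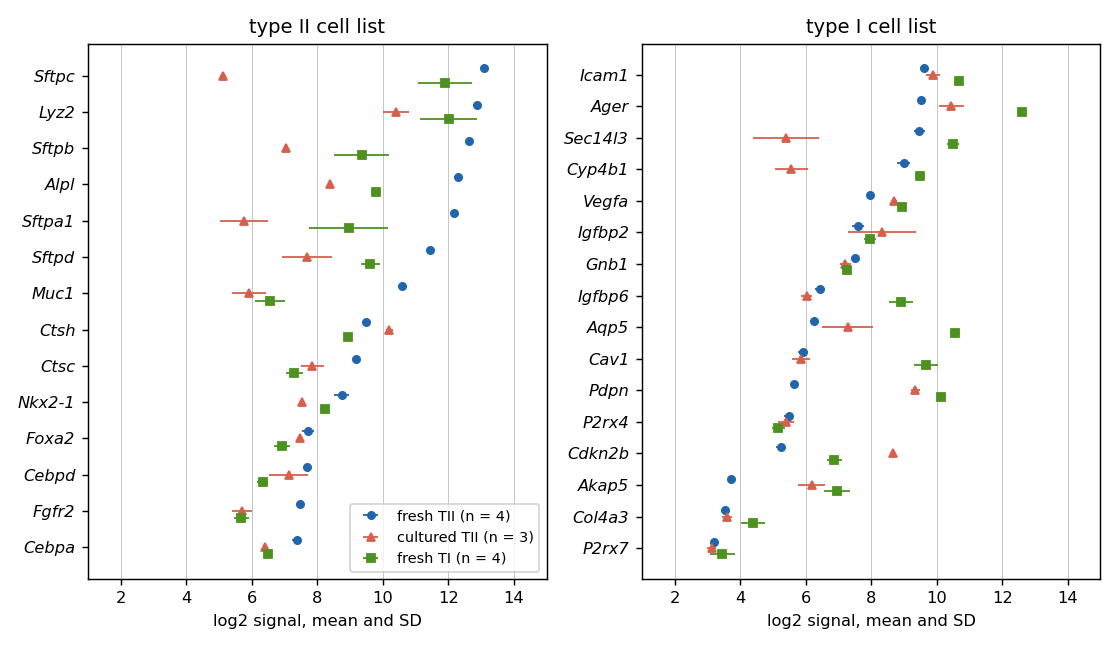
Mean log2 signal with SD (horizontal axis) of the 14 type II genes (left) and 16 type I genes (right), for fresh TII (circles, n = 4), cultured TII (triangles, n = 3) and fresh TI arrays (squares, n = 4). Pdpn in culture lies 0.79 below fresh TI cells, Aqp5 lies between the fresh groups and Cav1 lies with fresh TII cells, while most type II genes in culture are below both fresh groups, such as Sftpb with a cultured mean of 7.04.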

How the data were processed

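The deposited table gives log2 signals per probe set, as processed by the authors. The sources used here do not give their summarisation, background correction or scaling. The base was read from the values, since as natural logarithms the highest would stand for 520737, above the 65535 of a 16-bit scanner. Deposited values were used unchanged and dim probe sets were kept. Annotation gave 1 gene for 7006 of 8740 probe sets, several for 308 and none for 1426, and probe sets without exactly 1 gene were not named.

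Means of the 3 groups were estimated from the 11 arrays in limma 3.58.1 (R 4.3.3), with moderated two-sided tests from lmFit and eBayes, and p-values were adjusted by Benjamini-Hochberg over the 8740 probe sets. On simulated data with 200 changed probe sets the fit found 97% of those changed 2-fold and 86% of those changed 1.5-fold, and 9 of its 192 calls were false. The simulation gave all groups the same spread. In the data 33.4% of probe sets were called, and 91 genes spanned at least 1 log2 unit among cultured arrays against 16 among fresh TII arrays. The simulated shares therefore need not hold for the counts above. Control probe sets were compared with an exact two-sided permutation test (scipy 1.17.1), whose smallest p for 3 against 4 arrays is 0.0571. The number of arrays limits precision.

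The members and the 42 gene lists were chosen with earlier results of these data known. Genes were named from among the 10 highest and 10 lowest called genes without overlap, the first gene and up to 5 called genes per direction of each list, and the measured type I and type II list genes. Klf6, Actg1, Rnd3, Dusp5, Cxcl6 and Il1rn are named for their promoter match, and Acaca, S100b, markers of other cell types and 14 genes (Arg1, Pf4, Csf1r, C1qb, C1qc, Cd14, Mfge8, Ankrd1, Ckmt1, Fzd2, Npw, Maob, Tc2n and Ly6i) were added after their values were seen. Lists are given by counts and medians only.

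Alternatives were quantile normalization, matching the spread of the arrays, leaving out dim probe sets, an intensity trend, fits on 2 groups, the replicate block, a stricter threshold of 0.01, the mean of a gene's probe sets and leaving out each array.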

Additional observations from a re-analysis of the deposited data

Results flagged for a closer look

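Among 321 genes named or added, 14 had a fresh TII array farther from the other 3 than Dixon's critical value allows. Chance flags about 1 group in 20 where groups are independent. These genes share the same arrays and were chosen with earlier results known, so this number was not tested against chance. Fresh array 1 was the distant one for 9 of them: Alox15 at 7.32, Alox5 at 6.61, Alox5ap at 6.99, Cdk4 at 8.02, Npr1 at 7.28, P2ry2 at 6.82, Rpl41 at 7.85, Snap23 at 5.65 and Ankrd1 at 4.92. Fresh array 3 was distant for Hbb at 10.14, Sec14l3 at 9.23 and Arg1 at 5.26, fresh array 2 for S100b at 6.42 and fresh array 4 for Sftpb at 12.59. The gap to the nearest array was 1.62 for Hbb and between 0.03 and 0.29 for the other genes.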

How the results depend on the processing

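The counts of called probe sets stayed within 1.5 times the main count under every alternative run. Single calls were less stable. Of 298 called genes among those named or added, 23 lost the call without cultured array 2, 20 without cultured array 3 and 10 with the mean of a gene's probe sets. Hmox1 and Scnn1a also lost it after quantile normalization (adjusted p = 0.0782 and 0.0544) and with the spread of the arrays matched (0.0689 and 0.0505). The number of type I genes above fresh TI cells was 2 rather than 1 with the mean of a gene's probe sets, and 1 to 2 when an array was left out. After quantile normalization the GAPDH difference in 3′ minus 5′ signal turned to 0.08. The sign turned with the mean of all probe sets for Aif1 (0.66), Gnb1 (0.16) and Sparc (2.63). Among genes that were not called, leaving out an array gave -0.17 to 0.10 for Cav1, -0.03 to 0.11 for Col4a3, -0.17 to 0.07 for P2rx4, -0.12 to 0.00 for P2rx7, -0.05 to 0.09 for Ptgs1 and -0.16 to 0.05 for Rab3d (0.02 without cultured array 3), and the replicate block gave 0.01 for P2rx7 and 0.00 for Wt1. The cause was not tested. The labels do not say whether replicate numbers pair the arrays. Deviations from group means had r of -0.20 to 0.28 over 10 same-numbered pairs and -0.27 to 0.23 over 30 differently numbered pairs. With 3 or 4 arrays per group these values cannot settle it.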

Other observations

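Genes outside the lists also differed widely, and those named here were chosen after their values were seen. Arginase Arg1 read 5.03, 5.02, 5.26 and 5.03 in fresh cells and 6.36, 8.36 and 9.26 in culture, and the platelet and macrophage chemokine Pf4 read 5.56, 5.41, 5.39 and 5.50 and then 6.97, 8 and 9.18. Both were highest on cultured array 3, as were most macrophage and leukocyte markers. Without that array their rises were 2.28 and 2.02 in place of 2.91 and 2.58 (limma, Benjamini-Hochberg adjusted p = 0.00057 and 1.07e-05).

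Other genes rose on all 3 cultured arrays. The phosphatidylserine-binding protein Mfge8 read 8.11, 8.20, 8.14 and 8.33 in fresh cells and 10.95, 11.33 and 10.84 in culture. Mitochondrial creatine kinase Ckmt1 rose by 2.83 ± 0.11, the cardiac and mechanically responsive factor Ankrd1 by 2.97 ± 0.16 and the Wnt receptor Fzd2 by 2.66 ± 0.16. Among those that fell were the neuropeptide Npw, from 10.12, 9.91, 9.97 and 9.91 to 6.27, 5.94 and 5.75, monoamine oxidase Maob by 3.39 ± 0.17 and Tc2n by 3.22 ± 0.12. Ly6i had cultured values of 9.66, 7.41 and 4.90 against 10.15 to 11.17 in fresh cells, and its fall by 3.44 ± 0.88 was -2.23 without cultured array 3 and -4.61 without cultured array 1.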
